A study of Homo sapiens with 4 samples.

Results

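The cyclin-dependent kinase (CDK) inhibitor genes CDKN1A, CDKN1B, CDKN1C, CDKN2A, CDKN2B, CDKN2C, CDKN2D and CDKN3 were examined in naive NB4 cells and in an NB4 line resistant to arsenic trioxide (ATO). The 8 genes were taken by name from 30956 gene or probe names on the array, and every probe that carried one of the names was kept, which gave 12 probes of 41000. NB4 is an established human cell line of acute promyelocytic leukemia (APL), and the naive cells served as the control. The resistant cells, named NB4-VM-AsR1 in the labels, were a clone derived in-house and were grown without ATO for a week before the experiment, so that the profile is of resistant cells off the drug. Both lines were kept in RPMI medium with serum, and 4 Agilent whole genome arrays on 1 slide received Cy3-labeled cRNA made from total RNA, 1 array for each of 2 independently kept flasks per line. The resistant line is 1 clone, and what goes with resistance and what goes with the clone cannot be told apart.

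CDK inhibitors are the brakes of the cell cycle. The CIP/KIP proteins p21 (CDKN1A), p27 (CDKN1B) and p57 (CDKN1C) bind whole cyclin and CDK complexes, above all those of CDK2, whereas the INK4 proteins p16 (CDKN2A), p15 (CDKN2B), p18 (CDKN2C) and p19 (CDKN2D) bind CDK4 and CDK6 and keep D-type cyclins from activating them. Both families keep the retinoblastoma protein (RB) in the form that holds back E2F and entry into S phase. CDKN3 is a phosphatase that takes the activating phosphate off CDKs. In myeloid cells p21 and p27 are known to rise when promyelocytes stop dividing and mature, and CDKN1C is an imprinted gene read mainly from the maternal chromosome.

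CDKN1C was the member that set the lines apart, and its probe is shown with that of its chromosome neighbour PHLDA2, which followed it across the 4 flasks, and with both probes of CDKN2A, which gave different results within 1 gene. Of each 60-base probe the first 30 bases are printed, 5′ to 3′ as in the scanner files. Positions are those of the hg19 build in the files, and all 4 probes lie on the minus strand. The CDKN1C probe lies at chr11:2904903-2904962, the PHLDA2 probe at chr11:2949696-2949755, and the CDKN2A probes at chr9:21968039-21968098 and chr9:21967780-21967839.
CDKN1C: gtattctgcacgagaaggtacactggtccc
PHLDA2: tttatttcgctggttctttgtagtcacata
CDKN2A, probe 1: ttaaaaatgtcctgccttttaacgtagata
CDKN2A, probe 2: gggttactggcttctcttgagtcacactgc

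Values are the log2 of the processed signal relative to the 75th percentile of the array, and they compare flasks for a given probe but not probes with each other. A probe entered the test when the scanner software marked it as well above background in both flasks of the naive line, of the resistant line or of each, and it was called if the Benjamini-Hochberg adjusted p of limma, over all 28221 probes tested, was below 0.05 and the change at least 2-fold. Between 27922 and 28244 probes were above background on an array. Taken over the tested probes, differences between the naive flasks had an SD of 0.71 and those between the resistant flasks of 0.37, against 1.01 to 1.07 for flasks of different lines. With 2 flasks per line an exact two-sided permutation test of a single probe cannot go below p = 0.333, so that the calls rest on the spread limma pools over probes. Where a flask was left out, its line had 1 flask, which was assumed to vary like the other line: without a naive flask the spread was that of the closer resistant flasks (3731 and 4538 probes called), and without a resistant flask that of the naive flasks (743 and 728 called). In bulk RNA fewer cells that express a gene and less RNA per cell cannot be told apart.

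Of the 12 member probes, 8 were above background on all 4 arrays, 1 on 1 array and 3 on none, and no member probe was saturated. The 8 tested probes covered 7 of the 8 genes, CDKN2B being the gene left out. CDKN1C, lower in the resistant cells, was the only member probe called (1 of 8), on arrays where 5.27% of all probes tested were called and 2.97% were called lower. In 7 of the 8 the flasks of the lines did not overlap, 5 lower and 2 higher in the resistant cells. That was also so for 52.8% of all probes tested, so that non-overlap alone says little in this comparison. All 4 tested CIP/KIP probes, on 3 genes, had a negative difference, and of the 3 tested INK4 probes 2 had a positive and 1 a negative one. Among all 28221 probes tested 14591 had a negative difference, so that the direction of so few probes says little. The median difference of the 8 probes was -0.23, against -0.0205 over all probes tested.

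**Figure D1:**
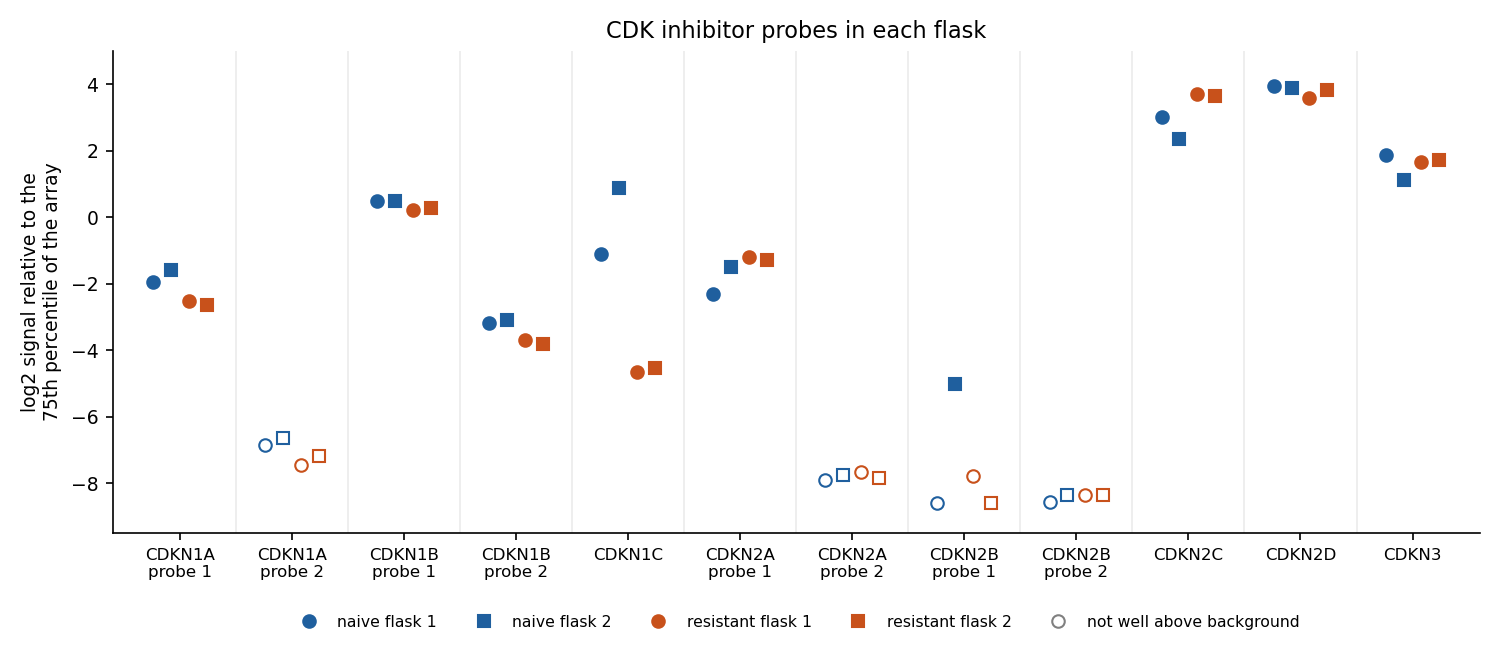
Log2 signal relative to the 75th percentile of the array for each CDK inhibitor probe, with 1 point per flask (blue, naive; orange, resistant; open, not well above background). The naive CDKN1C points lie at -1.12 and 0.87 and the resistant ones at -4.65 and -4.55, the widest separation among the member probes.

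CDKN1C encodes p57, and its only probe on the array had 1 spot. The signal was -1.12 and 0.87 in the naive flasks and -4.65 and -4.55 in the resistant flasks. Both resistant flasks lay far below both naive flasks, with no overlap, and remained above background. In unscaled processed signal the naive flasks read 496 and 1643 and the resistant flasks 41.8 and 36.0, where the software's error of the resistant readings was 4.99 and 4.04. CDKN1C was 22.2-fold lower in the resistant cells (log2 difference -4.47, SE 0.65, 95% interval -6.12 to -2.83, limma adjusted p = 0.0227). Among all probes tested, 170 had a lower difference.

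The naive flasks themselves differed at CDKN1C by 1.99 on the log2 scale, a gap wider than that of 98.2% of the probes tested, whereas the resistant flasks differed by 0.10. The log2 difference was -5.47 without the first naive flask and -3.48 without the second, and -4.42 and -4.52 without the first and the second resistant flask (adjusted p = 0.0432 and 0.0396), where the spread was that of the naive flasks alone. It kept its direction but lost its call after quantile normalization (adjusted p = 0.053) and without the filter on dim probes (adjusted p = 0.061). With the normexp background correction its log2 difference was -2.45, and there no probe on the array was called by limma, although 929 had an unadjusted p below 0.05.

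**Figure D2:**
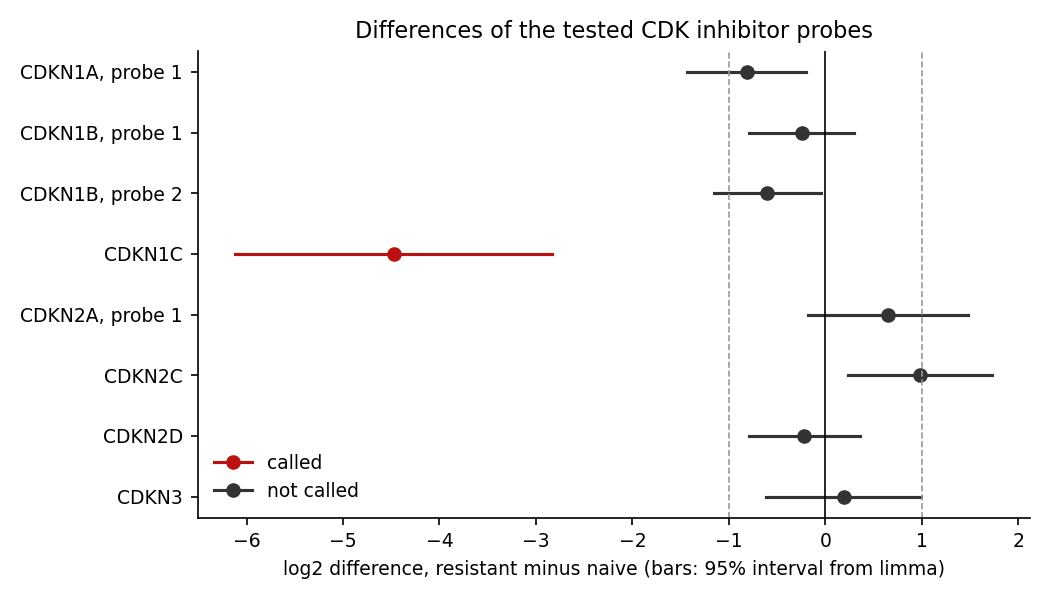
Log2 difference, resistant minus naive, for the 8 tested member probes, with the 95% interval from limma; dashed lines mark a 2-fold change. The interval of CDKN1C runs from -6.12 to -2.83, and the other 7 differences lie between -0.82 and 0.98.

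CDKN1A encodes p21, an inhibitor known to be induced by DNA damage. Its first probe, with 10 spots at chr6:36654706-36654765 on the plus strand, read -1.94 and -1.59 in the naive flasks and -2.51 and -2.65 in the resistant flasks. Both resistant flasks were below both naive flasks. The log2 difference of -0.82 (SE 0.24, 95% interval -1.43 to -0.20) did not pass (limma adjusted p = 0.161). Over the spots kept the SD was between 0.015 and 0.216 on an array, and 1 spot of the first and 3 of the second naive array were left out as outliers. The second CDKN1A probe was above background on no array, at -6.84 and -6.63 in the naive and -7.45 and -7.18 in the resistant flasks, and was not tested.

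CDKN1B encodes p27, which is held down by degradation as much as by transcription. Its first probe, also with 10 spots, read 0.50 and 0.50 in the naive flasks and 0.22 and 0.28 in the resistant flasks. Its second probe read -3.19 and -3.10 in the naive flasks and -3.68 and -3.81 in the resistant flasks. On both probes the resistant flasks lay below the naive ones without overlap. Neither probe was called, with log2 differences of -0.25 (95% interval -0.79 to 0.30, limma adjusted p = 0.591) and -0.60 (95% interval -1.16 to -0.042, adjusted p = 0.234).

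CDKN2A encodes p16 and, through another reading frame, p14ARF, and the transcripts of both share the last exon. Probe 1, shown above, read -2.30 and -1.50 in the naive flasks and -1.20 and -1.30 in the resistant flasks. Both resistant flasks were above both naive flasks, the second of which came close to them. The log2 difference of 0.65 (95% interval -0.18 to 1.48) did not pass (limma adjusted p = 0.361), and it was 0.25 without the first naive flask and 1.05, then called (adjusted p = 0.0157), without the second.

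Probe 2 of CDKN2A starts 259 bases further along the same transcript and has 10 spots, none of them above background on any array. It read -7.89 and -7.74 in the naive flasks and -7.65 and -7.84 in the resistant flasks. The scanner software had put a surrogate in place of 2 or 3 of its spots on each array. The probes thus disagreed on whether a CDKN2A transcript was detected at all, with 27 and 24 G or C bases of 60 in probe 2 and probe 1. Which of them reports the gene was not tested.

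CDKN2B, beside CDKN2A on 9p21, encodes p15. Its first probe read -8.59 and -5.02 in the naive flasks and -7.77 and -8.58 in the resistant flasks, and was above background in the second naive flask alone. Its second probe was above background nowhere, between -8.55 and -8.34 in the 4 flasks. CDKN2B was therefore not detected on these arrays apart from that flask, and no fold change is given. The genes around it were mixed: all 3 probes of MTAP, the methionine salvage gene next to CDKN2A, were above background on no array, between -8.82 and -8.27, whereas a KLHL9 probe read 3.37 and 3.40 in the naive and 3.31 and 3.53 in the resistant flasks.

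CDKN2C encodes p18, an INK4 protein of dividing and maturing blood cells. Its probe read 3.02 and 2.36 in the naive flasks and 3.69 and 3.65 in the resistant flasks. Both resistant flasks were higher, with no overlap, and the resistant flasks differed from each other by 0.044 against 0.66 between the naive ones. CDKN2C had the highest difference of the members, 0.98 on the log2 scale (SE 0.30, 95% interval 0.23 to 1.73), without passing the test (limma adjusted p = 0.164). Without the first naive flask it was 1.31 and called (adjusted p = 0.00805), and without the second 0.65 and not called.

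CDKN2D, encoding p19, read 3.95 and 3.88 in the naive flasks and 3.59 and 3.82 in the resistant flasks. The resistant flasks were lower by a margin smaller than the gap between them. The log2 difference was -0.22 (95% interval -0.79 to 0.36, limma adjusted p = 0.656), an interval that leaves out a 2-fold change in either direction. CDKN3 read 1.87 and 1.11 in the naive flasks and 1.66 and 1.70 in the resistant flasks, and was the only tested member whose lines overlapped. Its log2 difference was 0.19 (95% interval -0.61 to 1.00, limma adjusted p = 0.790), and it was 0.57 without the first naive flask and -0.19 without the second.

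**Figure D3:**
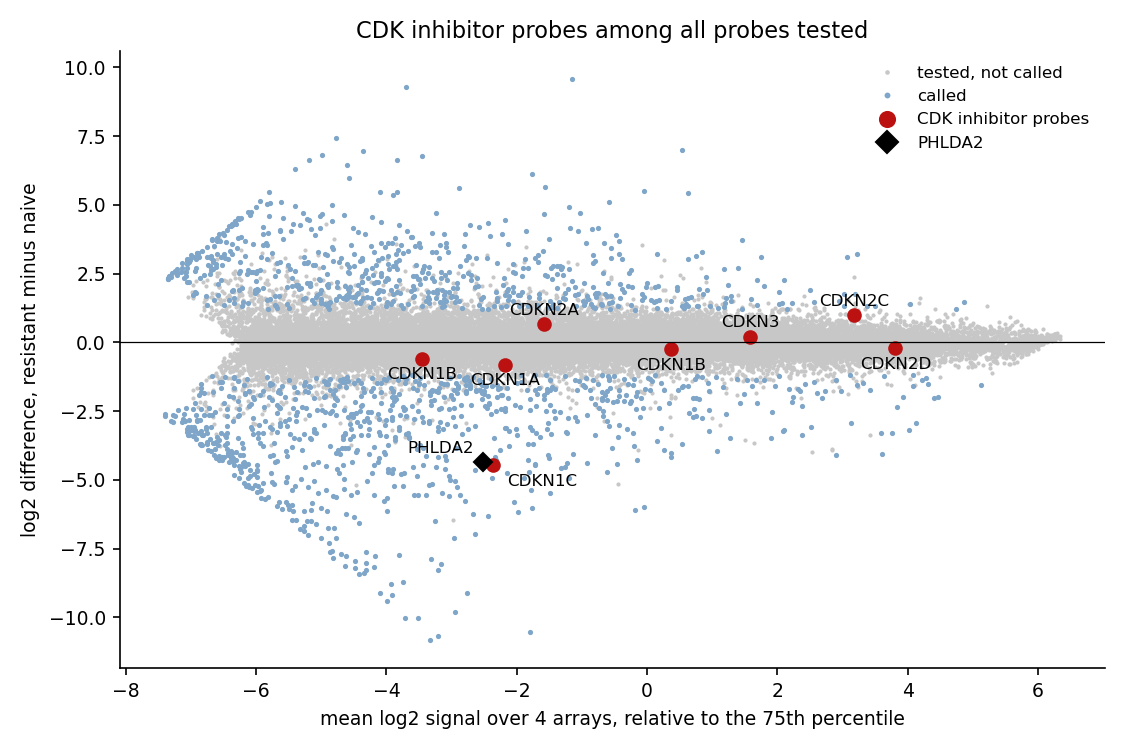
Log2 difference, resistant minus naive, of all 28221 probes tested against their mean log2 signal, with the member probes in red and PHLDA2 as a black diamond. CDKN1C and PHLDA2 lie together at -4.47 and -4.34, and the other members lie within the grey band of probes that were not called.

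The genes most like CDKN1C over the 4 flasks were found by the root mean square (RMS) distance between values centred on the mean of each probe, among 21063 gene or probe names tested. The nearest was an unnamed probe (A_32_P144007) at 0.17, above background in the naive flasks only. The next was PHLDA2 at 0.175, followed by a transcript named MGC24103 at 0.197. PHLDA2 restrains placental growth and, like CDKN1C, is imprinted and read mainly from the maternal chromosome, and it is the second protein-coding gene from CDKN1C among those with a probe. PHLDA2 read -1.12 and 0.44 in the naive flasks and -4.79 and -4.56 in the resistant flasks, the second naive flask being the highest and both resistant flasks the lowest, as at CDKN1C. Its log2 difference was -4.34 (SE 0.53, 95% interval -5.67 to -3.00, limma adjusted p = 0.0128), and without the first and the second resistant flask it was -4.22 and -4.45 (adjusted p = 0.0289 and 0.0239).

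The 5 protein-coding genes on each side of CDKN1C with a probe were then examined, a choice made after its values were seen. Of their 11 probes 10 were tested and 2 called: PHLDA2, and TSPAN32, the farthest on the other side, which was higher in the resistant cells (log2 difference 1.496, limma adjusted p = 0.0298) and lost its call without either resistant flask (adjusted p = 0.291 and 0.244) and with the replicate number as a block (adjusted p = 0.0531). The other 8 probes had differences between -0.51 and 0.89, with SLC22A18, the gene between CDKN1C and PHLDA2, at -0.51 and 0.89 on its 2 probes. KCNQ1, the gene on the other side of CDKN1C, was above background in the second naive flask alone.

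Of the non-coding RNAs of this imprinted region, chosen likewise, KCNQ1OT1, the antisense transcript read from the paternal chromosome that silences CDKN1C there, had differences of 0.65 and 0.74 on its 2 probes and was not called (limma adjusted p = 0.227 and 0.224). H19 read 0.44 and 0.46 in the naive flasks and -1.50 and -2.35 in the resistant flasks. It was lower in both resistant flasks (log2 difference -2.38, limma adjusted p = 0.0210), a call lost without the second resistant flask (adjusted p = 0.105). The naive flasks, which differed widely at CDKN1C and PHLDA2, were level at H19. Other genes of the region that were looked at were not called. SLC22A18AS, at chr11:2909428-2909487 between the CDKN1C and PHLDA2 probes, had a difference of 0.17 (limma adjusted p = 0.812). The tested ASCL2 probe had a difference of -1.40 (adjusted p = 0.149), with its flasks in the same order as at CDKN1C. The tested probes named IGF2 had differences of -0.12 and -0.49. The second of them lies on the plus strand, whereas an untested IGF2 probe, above background on no array, lies on the minus strand. Whether that second probe reads IGF2 mRNA was not tested. KCNQ1DN was above background on no array.

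**Figure D4:**
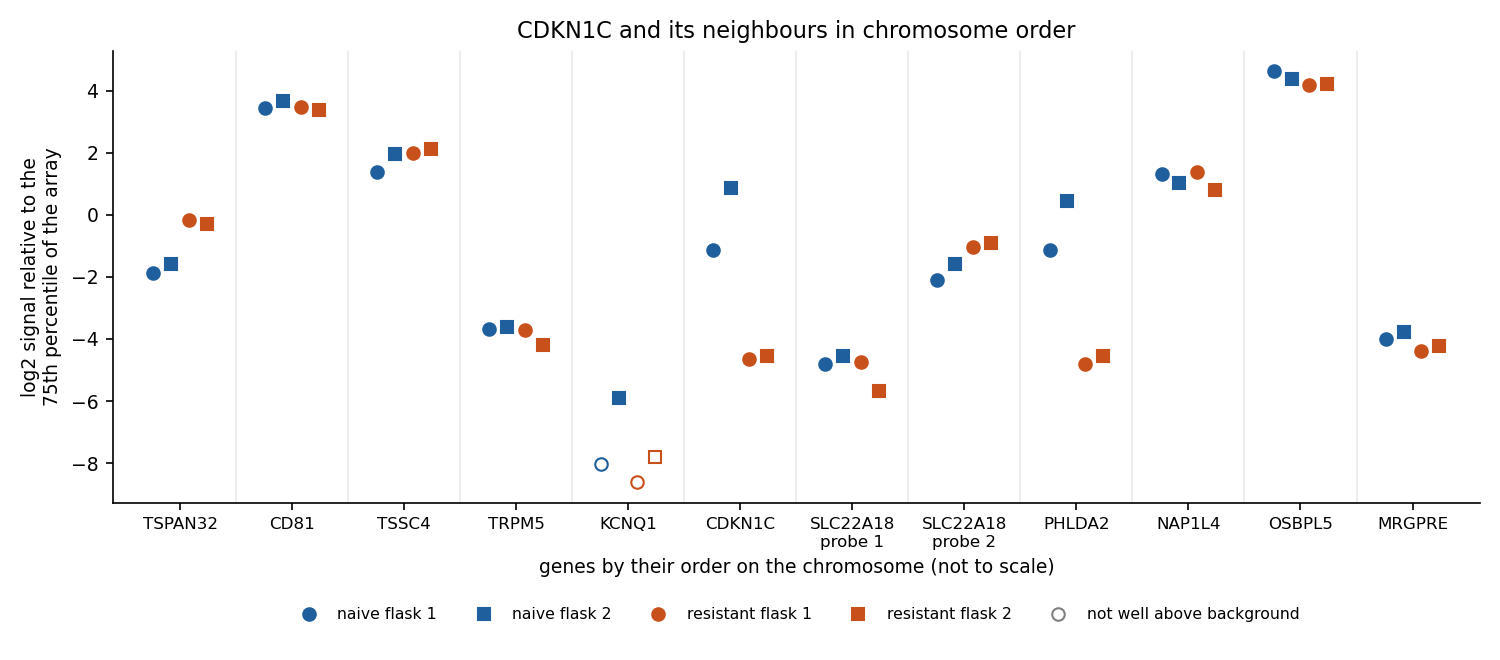
Log2 signal relative to the 75th percentile for CDKN1C and 5 protein-coding genes on each side of it, in their order on the chromosome, with 1 point per flask (open, not well above background). CDKN1C and PHLDA2 show the same order of flasks, with the second naive flask highest and the resistant flasks near -4.6, while SLC22A18 between them does not. MRGPRE shows that order too, over a narrower range (log2 difference -0.43, not called).

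Partners of the inhibitors were described through 9 lists of cell cycle genes, of whose 99 genes 97 were on the array, with 141 probes tested. Of these probes 4 were called, 3 lower and 1 higher, against 5.27% of all probes. The genes that INK4 proteins act on, CDK4, CDK6 and the D-type cyclins, had a median difference of -0.85 over 11 probes of 5 genes. Of these probes 10 did not overlap between the lines, where 52.8% of all probes tested did not. That list held both directions: 9 probes were lower and 2 higher in the resistant cells. Among all 28221 probes tested 14591 were lower.

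Cyclin D1 (CCND1), the D-type cyclin that INK4 proteins keep from CDK4, was lower in the resistant cells. Its brightest called probe read -2.08 and -2.14 in the naive flasks and -3.59 and -3.78 in the resistant flasks. The lines did not overlap, and the log2 difference was -1.58 (SE 0.22, limma adjusted p = 0.0209), a call lost without either resistant flask (adjusted p = 0.177 and 0.265). A further CCND1 probe, called lower, was above background in the naive flasks only and entered the test through them, so that it had to be lower and adds no support. It was at least 2.93-fold lower in the resistant cells (limma adjusted p = 0.0392), where the bound is taken against the lowest signal above background on each array. The third CCND1 probe had a difference of -1.10 and was not called (adjusted p = 0.122).

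CDK6, the INK4 target of blood cells, had differences of 1.29 (95% interval 0.58 to 1.99) and 0.95 on its 2 probes. Neither was called (limma adjusted p = 0.0742 and 0.214). The first probe was called, however, with an intensity trend in limma (adjusted p = 0.0433) and without either naive flask (differences of 1.54 and 1.04), and the second without the first naive flask (1.33, against 0.57 without the second). CDK4 had a difference of -0.17 (95% interval -0.75 to 0.40) and was not called. The 3 probes of CCND2 had differences between -1.01 and -0.47 and the 2 of CCND3 of -1.02 and -0.81, none of them called, although all 3 CCND2 probes, 1 of CCND3 and the third of CCND1 were called lower without the second naive flask. Without the first naive flask 1 of the CCND2 probes had a difference of 0.20.

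The kinase and cyclin that CIP/KIP proteins restrain were not called: CDK2 had a difference of -0.77 (95% interval -1.76 to 0.22; -0.36 without the first naive flask, and -1.18 and called without the second) and cyclin E1 (CCNE1) of 0.53 (95% interval -0.24 to 1.30). None of the 8 probes of that list was called, with a median difference of -0.20. RB1, which encodes RB, had differences of 0.38 and 0.36 on its 2 probes, and none of the 21 probes of the RB and E2F list was called. The ligase components SKP2 and CKS1B, which target p27 for degradation, had differences between -0.13 and 0.10 on 4 probes, and none of the 16 turnover probes was called. The CKS1B probes were placed on different chromosomes (8, X and 5), and whether they read CKS1B alone was not tested.

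Among transcription factors that act on the inhibitors, FOXO1, an activator of CDKN1B, was the 1 called probe of 29. It read -2.29 and -2.21 in the naive flasks and -0.80 and -0.68 in the resistant flasks. Both resistant flasks were higher, with a log2 difference of 1.51 (SE 0.22, limma adjusted p = 0.0227), a call lost without either resistant flask (adjusted p = 0.215 and 0.284), and the second FOXO1 probe had a difference of 0.93 and was not called. CDKN1B itself, as given above, had negative differences on both probes. The 4 probes of the ubiquitin ligase MDM2 had differences of -0.29 to -0.037, 1 MYC probe of -0.73, and CEBPE, a factor of late granulocyte maturation, of -0.62 (95% interval -1.22 to -0.028), none of them called. The other MYC probe was saturated on all 4 arrays and gives no difference.

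Of the genes of G2 and mitosis, UBE2C, a ubiquitin carrier of the anaphase-promoting complex, was the only called probe of 19. It read 1.22 and 1.32 in the naive flasks and -2.12 and -2.21 in the resistant flasks, with a log2 difference of -3.43 (SE 0.22, limma adjusted p = 0.00175). The other 18 probes of the list were not called, and the list's median was -0.062 and its highest difference 0.32. The lowest differences that were not called were those of CDC20 (-0.74), MKI67 (-0.61) and AURKA (-0.57). Of the 19 probes 12 were lower and 7 higher in the resistant cells, against 14591 lower of all 28221 probes tested. The CDK activation list (10 probes) and the genes around CDKN2A and CDKN2B on 9p21 (4 tested) had no called probe.

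**Figure D5:**
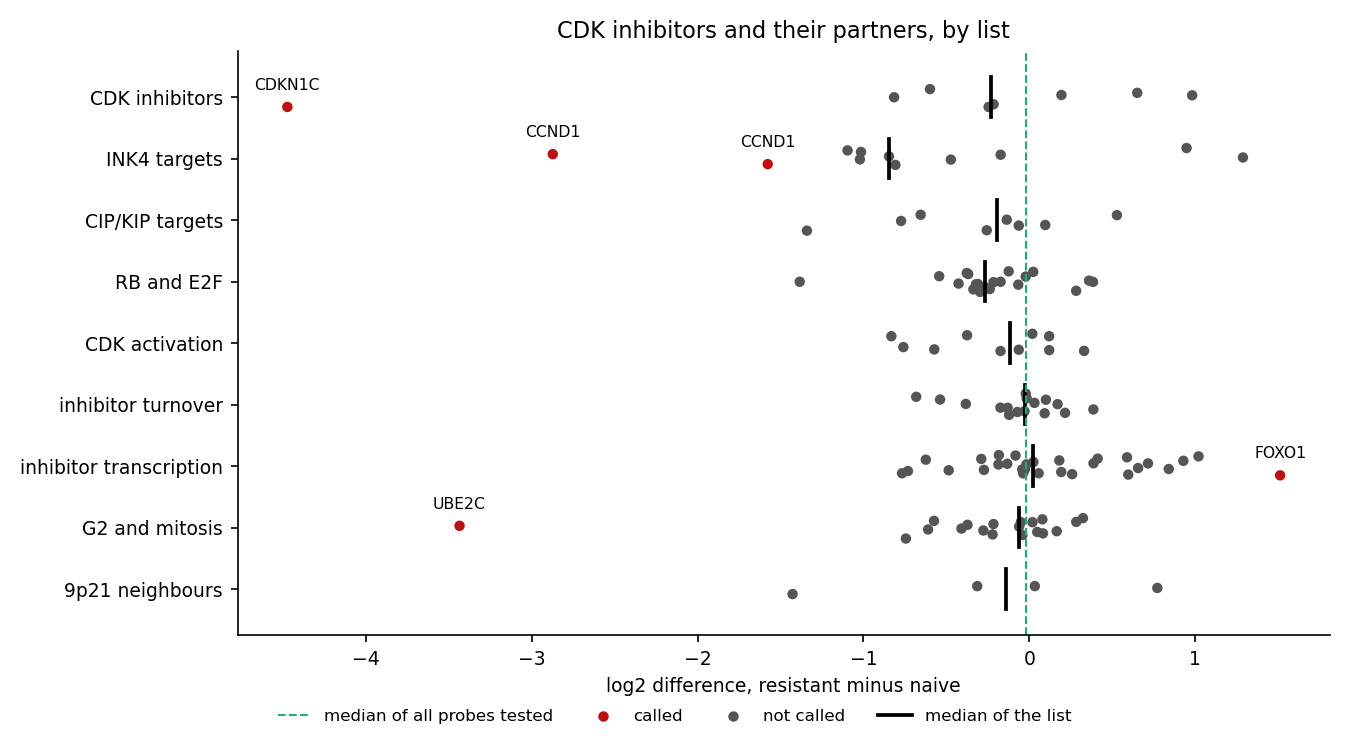
Log2 difference, resistant minus naive, of each tested probe of the CDK inhibitors and of 8 of the lists of related genes (red, called; black bar, median of the list; dashed line, median of all probes tested). The INK4 targets have the lowest median, -0.85, with CDK6 on the other side of 0, and single probes of CDKN1C, UBE2C and FOXO1 stand apart from their lists.

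The promyelocyte label was checked on 6 granule and surface genes: 6 of their 7 probes were above background on all arrays. MPO was saturated on all 4 arrays and CTSG on 2, and without both, a choice made after the values were seen, the summed list read 3.91 to 4.31 in the naive and 4.97 to 4.99 in the resistant flasks. ELANE and AZU1 were called higher in the resistant cells (log2 differences 2.49 and 1.17). Their calls were lost under 6 of 16 and 7 of 17 alternatives, and ELANE entered the test through the resistant flasks. PRTN3 read 3.16 and 0.80 in the naive and 4.43 and 4.32 in the resistant flasks and was not called (log2 difference 2.39). Both CD33 probes went the other way, with differences of -0.29 and -0.28, and neither was called. Of 5 T cell probes 2 were called lower, CD3D at 0.70 and 1.16 in the naive and -7.61 and -7.11 in the resistant flasks, and CD3G, and both were above background in the naive flasks only and entered the test through them, so that they had to be lower. In the naive flasks the summed list, mostly the signal of CD3D, read 0.82 to 1.26, and in the resistant flasks -2.86 to -2.51. The sum thus largely repeats CD3D and adds no support. CD2 had a difference of 1.02 and CD3E of -0.43 and -0.014, none of these called. Of the B cell probes CD79B was called lower (-1.204), a call lost under 9 of 17 alternatives. Most erythroid (4 of 6) and stromal (6 of 7) probes were above background on no array. The part of these shifts in the difference at CDKN1C was not tested.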

How the data were processed

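RNA of 2 flasks of naive and 2 of resistant cells was measured on 1-colour arrays. The authors read the scans with the Feature Extraction software (10.5.1.1); in the deposited output the processed signal is a linear, background-subtracted intensity, and low spots carry a surrogate; the mean spot and local background signals are further deposited intensities. A second deposited file holds the authors' log2 values after a 75th percentile shift, used as an alternative (Pearson's r with the values here at least 0.9998 across probes on each array).

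Control spots and outlier spots were left out, spots of a probe averaged after log2, and the 75th percentile of the array subtracted. Lines were compared in R 4.3.3 with lmFit and eBayes of limma 3.58.1, with Benjamini-Hochberg adjustment over all probes tested, a procedure first tested on simulated data. A spot group counted as above background when at least 50% of its spots were. Arrays have no read depth, and their number limits the precision. Current symbols came from a RefSeq table (GRCh38.p14) for 26222 of 41000 probes, and SLC22A18 is the array's name. Every member probe was named, with 15 direct partners whatever their change (1 of them, and 1 list, not reported here), in each list the called probes with the highest and lowest difference, and the 3 genes most like a called member. The members and lists were chosen with earlier results of these data known, and CDKN1C's neighbours after its values were seen. The name NB4-VM-AsR1 of the labels was taken for the clone NB4-EV-AsR1 of the methods. Alternatives changed the background correction, normalization, filters, test, threshold, pairing and flasks.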

Additional observations from a re-analysis of the deposited data

How the results depend on the processing

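Over 17 alternatives the 8 member differences gave 136 values, of which 129 kept direction and side of the threshold, 4 lost the call (all at CDKN1C), 2 gained it and 1, at CDKN3, changed sign; for the other named probes these were 568, 56, 13 and 21 of 658. The count of called member probes, 1, was 0 with normexp (offset 50), quantile normalization, no filter on dim probes and the methods' t-test adjusted (4 of the 8 had an unadjusted p below 0.05 in each of these but normexp, with 1), and ran from 1 to 2 as flasks were left out. At CDKN1C the log2 difference was -2.45 (normexp, adjusted p = 1.00), -4.45 (quantile, 0.053) and -4.47 (no filter, 0.061; the methods' t-test, 0.331), and -5.47 to -3.48 as flasks were left out; resetting bright local backgrounds before normexp kept it called, so that its call turned on how those were handled, and the cause of the other losses was not tested. The called cell cycle list probes, 4, were 0 with normexp and with the t-test adjusted (5 and 13 at an unadjusted p below 0.05), 7 with an intensity trend, 8 with the t-test unadjusted, and 1 to 26 as flasks were left out. Over all probes the 1487 calls were 0 with normexp and with the t-test adjusted (929 and 4138 at an unadjusted p below 0.05), 760 on probes above background on all 4 arrays, which tests fewer probes, and 728 to 4538 as flasks were left out.

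The replicate number as a block gave 1 member, 4 list and 1375 calls in all, with the CDKN1C difference at -4.47 (adjusted p = 0.0130); the numbers named flasks only, with 2 pairs and a correlation of deviations of 0.12, and the block changed no member's call, while AZU1, CD79B and TSPAN32 lost theirs (adjusted p = 0.0832, 0.0811 and 0.0531). The sign turned with normexp at the saturated MYC probe (-0.022), whose sign carries no information, at 2 of 4 MDM2 probes (0.19 and 0.30), 1 CKS1B probe (-0.0019), CD3G (0.16) and the dimmer called CCND1 probe (0.028), and at 1 MDM2 probe with bright backgrounds reset (0.032) and at another with quantile (0.034), the shift to the median (0.0076) and scale normalization (0.00087), where the saturated MYC probe was -0.012. As flasks were left out, CDKN3 ranged from -0.19 to 0.57, 1 of 3 CCND2 probes from -1.14 to 0.20, SKP2 from -0.80 to 0.54, the saturated MYC probe from -0.10 to 0.21, 1 of 4 MDM2 probes from -0.42 to 0.34, and 2 of 3 CKS1B probes from -0.11 to 0.29 and -0.11 to 0.17. The slide could not be a block, as there was 1. Values near background, as of CDKN2B and the dim probes of CDKN1A and CDKN2A, have no order.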
